A study of Mus musculus with 4 samples.

Results

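The mitochondrial solute carriers described here are the protein-coding genes of the GENCODE mouse annotation (mm10) whose symbol starts with *Slc25a*, together with *Ucp2* and *Ucp3*. The rule gave 49 members of 21924 protein-coding genes and used no measured value, though it was chosen with earlier results of these data known. *Ucp1*, the uncoupling protein of thermogenic fat, belongs to the same protein family but lies outside the rule and is reported among the other mitochondrial transporters. Accessible chromatin was measured at 45 of the 49 members, which held 233 peaks in all. *Slc25a31*, *Slc25a54*, *Slc25a41* and *Slc25a2* had no peak.

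The carriers of this family sit in the inner mitochondrial membrane, with a few exceptions such as the peroxisomal carrier Slc25a17, and exchange metabolites between the cytosol and the matrix. The ADP/ATP carriers (*Slc25a4*, *Slc25a5*) and the phosphate carrier (*Slc25a3*) serve ATP synthesis, the carnitine/acylcarnitine carrier (*Slc25a20*) brings in fatty acids for oxidation, and the citrate (*Slc25a1*) and dicarboxylate (*Slc25a10*) carriers link the matrix to lipid synthesis in the cytosol. Thermogenic adipocytes burn fatty acids, glucose and branched-chain amino acids in their mitochondria and dissipate the proton gradient as heat, so that substrate import, cofactor import and uncoupling all bear on their metabolism.

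Single-nucleus ATAC-seq, in which the Tn5 transposase inserts adapters into open chromatin, was performed on whole inguinal white adipose tissue (iWAT) of 21 male C57BL/6 mice, 8 weeks old, with 3 mice in each of 7 groups. The day0RT group was kept at room temperature (22 °C) without intervention, the day1C, day3C and day7C groups were exposed to cold (6.5 °C), and the day1CL, day3CL and day7CL groups received CL-316,243 (CL, 1 mg/kg), an agonist of the β3-adrenergic receptor. No transgene or other genetic change is named in the labels for any group, and each mouse was a separate sample. The deposited matrix marks each of 189598 peaks as open or not in each of 32552 nuclei, and the deposited annotation assigns every nucleus to a mouse and to 1 of 12 clusters.

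Counts are the numbers of nuclei with reads in a peak. For each mouse and cluster (a library) they were added up, and so were the counts of the peaks on the body of a gene and the 2000 bases upstream of it. Levels are given as CPM, gene counts scaled to the total of all gene counts of the library, and they measure chromatin accessibility, not expression. The mice gave 1111 to 2021 nuclei and 1340376 to 6916698 counts each. Libraries differed in composition, with lymphocytes making up 11.9%, 14.1% and 36.8% of the nuclei in day1CL mouse 3, day3CL mouse 2 and day3C mouse 1, against 58.2% to 90.8% in the other mice, and day1CL mice 1 and 2 gave 29 and 68 adipocyte nuclei against 156 or more in the others. Of 28031 barcode sequences, 4218 occurred in more than 1 mouse. The summed adipocyte markers (*Adipoq*, *Plin1*, *Cidec*, *Lipe*, *Pparg*, *Lpl*) were at 2003 CPM in white and 1943 CPM in beige adipocytes, and the beige markers (*Ucp1*, *Cidea*, *Dio2*, *Ppargc1a*, *Prdm16*) at 622 and 1078 CPM. In the cluster annotated VSMC (vascular smooth muscle), the skeletal muscle markers (*Acta1*, *Ckm*, *Ryr1* and 7 others) reached 2125 CPM and the smooth muscle markers 284 CPM, so its markers went against its label and it is called the cluster annotated VSMC throughout.

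The promoters below belong to members with some of the smallest p-values between beige and white adipocytes in each direction and to the acylcarnitine carrier. Each is the window of 250 bases before to 50 bases after the gene start, from RefSeq on GRCm38.p6, the assembly of mm10, printed 5′ to 3′ on the strand of the gene. A RefSeq window was matched for 38 of the 49 members, and not for *Slc25a51*, which had the smallest p of the members that rose. Capitals mark the ETS/GABPA letters CCGGAAGT, which were found in *Slc25a20* alone of the 38 members, 79 bases before its start, and in 3.89% of 32851 promoters.
Slc25a34, chr4:141623785-141624084, minus strand: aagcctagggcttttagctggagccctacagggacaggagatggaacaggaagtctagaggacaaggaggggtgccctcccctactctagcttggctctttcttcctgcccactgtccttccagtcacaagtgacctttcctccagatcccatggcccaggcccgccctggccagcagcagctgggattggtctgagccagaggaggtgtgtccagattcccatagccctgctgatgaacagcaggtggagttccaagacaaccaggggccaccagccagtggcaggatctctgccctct
Slc25a10, chr11:120491587-120491886, plus strand: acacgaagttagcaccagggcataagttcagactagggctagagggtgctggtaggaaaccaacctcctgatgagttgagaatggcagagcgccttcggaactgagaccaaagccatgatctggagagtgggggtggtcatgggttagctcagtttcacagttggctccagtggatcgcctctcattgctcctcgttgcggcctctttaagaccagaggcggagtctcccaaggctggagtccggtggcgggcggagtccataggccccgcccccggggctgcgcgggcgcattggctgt
Slc25a18, chr6:120773518-120773817, plus strand: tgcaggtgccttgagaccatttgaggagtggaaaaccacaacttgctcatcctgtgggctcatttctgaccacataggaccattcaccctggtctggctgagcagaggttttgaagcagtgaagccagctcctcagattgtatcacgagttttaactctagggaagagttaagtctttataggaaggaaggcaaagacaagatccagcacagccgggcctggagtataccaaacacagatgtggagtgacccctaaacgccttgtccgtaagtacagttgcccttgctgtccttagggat
Slc25a20, chr9:108661886-108662185, plus strand: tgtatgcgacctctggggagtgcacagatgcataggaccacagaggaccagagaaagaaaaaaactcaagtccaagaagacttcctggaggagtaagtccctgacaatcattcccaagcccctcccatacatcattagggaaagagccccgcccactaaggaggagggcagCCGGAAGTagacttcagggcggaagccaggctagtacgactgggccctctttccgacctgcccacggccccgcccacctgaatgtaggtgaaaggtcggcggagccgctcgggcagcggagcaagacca
The *Slc25a34* window lies inside a peak (chr4:141623602-141624235), as do the *Slc25a10* window (chr11:120491228-120493060) and the *Slc25a20* window (chr9:108661730-108663155). The *Slc25a18* window overlaps none of the peaks of that gene, of which the nearest ends upstream of it (chr6:120771509-120772568). The other letters searched on both strands, which do not overlap CCGGAAGT in the windows shown, were found in few members. The ESRR letters TCAAGGTCA occurred in 0 of 38 members and 0.423% of promoters, the NRF1 letters GCATGCGC in *Slc25a31* and *Slc25a54* and 2.71% of promoters, the YY1 letters AAGATGGC in *Slc25a3* and 2.75%, and the CRE letters TGACGTCA in *Slc25a36* and 1.79%.

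Members held from 1 to 26 peaks, with a median of 4. *Slc25a26*, the S-adenosylmethionine carrier, held 26, and 7 members held a single peak. Of the 45 members with a peak, 40 had one within 2000 bases of the gene start, and *Slc25a25*, *Slc25a28*, *Slc25a32*, *Slc25a37* and *Slc25a42* had none there. Of the 45, 13 shared a peak with a neighbouring gene, and the value of *Slc25a11*, the oxoglutarate carrier, cannot be told apart from *Rnf167*, since its only peak was counted for both. *Slc25a29* and *Slc25a47*, which lie head to head on chromosome 12, shared 1 peak with each other, so they are not independent of each other.

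Across the 12 clusters, 15 of 45 members were at their highest level in an adipocyte cluster. The highest mean CPM was in beige adipocytes for 12 of 45 members (26.7%, against 8.51% of all genes with a peak), in white adipocytes for 3 (6.67% against 7.34%) and in the cluster annotated VSMC for 9 (20.0% against 12.8%). Near ties were among those 9, such as *Slc25a16* (68.2 CPM against 67.3 in macrophages) and *Slc25a5* (48.2 against 46.5 in B cells). Gaps were also small for the members highest in beige adipocytes, from 1.10 times the next cluster for *Slc25a22* to 1.78 times for *Slc25a32*. *Slc25a22* was at a mean of 105.75 CPM there against 95.7 in white adipocytes, with a median of 95.3 and a highest beige library of 311 CPM. The summed level of the members was 3392 ± 370.2 CPM (SD, n = 10 mice) in the cluster annotated VSMC, 3250.3 ± 311 (n = 19) in beige and 2977 ± 103 (n = 21) in white adipocytes, and its mean ranged from 2125 to 2519 CPM in the other 9 clusters. The clusters were drawn from the same peaks, so these levels are given as a description. With promoter peaks only, 12 of 40 members were highest in an adipocyte cluster (9 in beige, 3 in white), as many as in the cluster annotated VSMC (12), and 32 kept their highest cluster. With nuclei of at least 2000 counts, 13 of 45 were highest in an adipocyte cluster and 8 in the cluster annotated VSMC, and 30 kept their highest cluster.

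**Figure D1:**
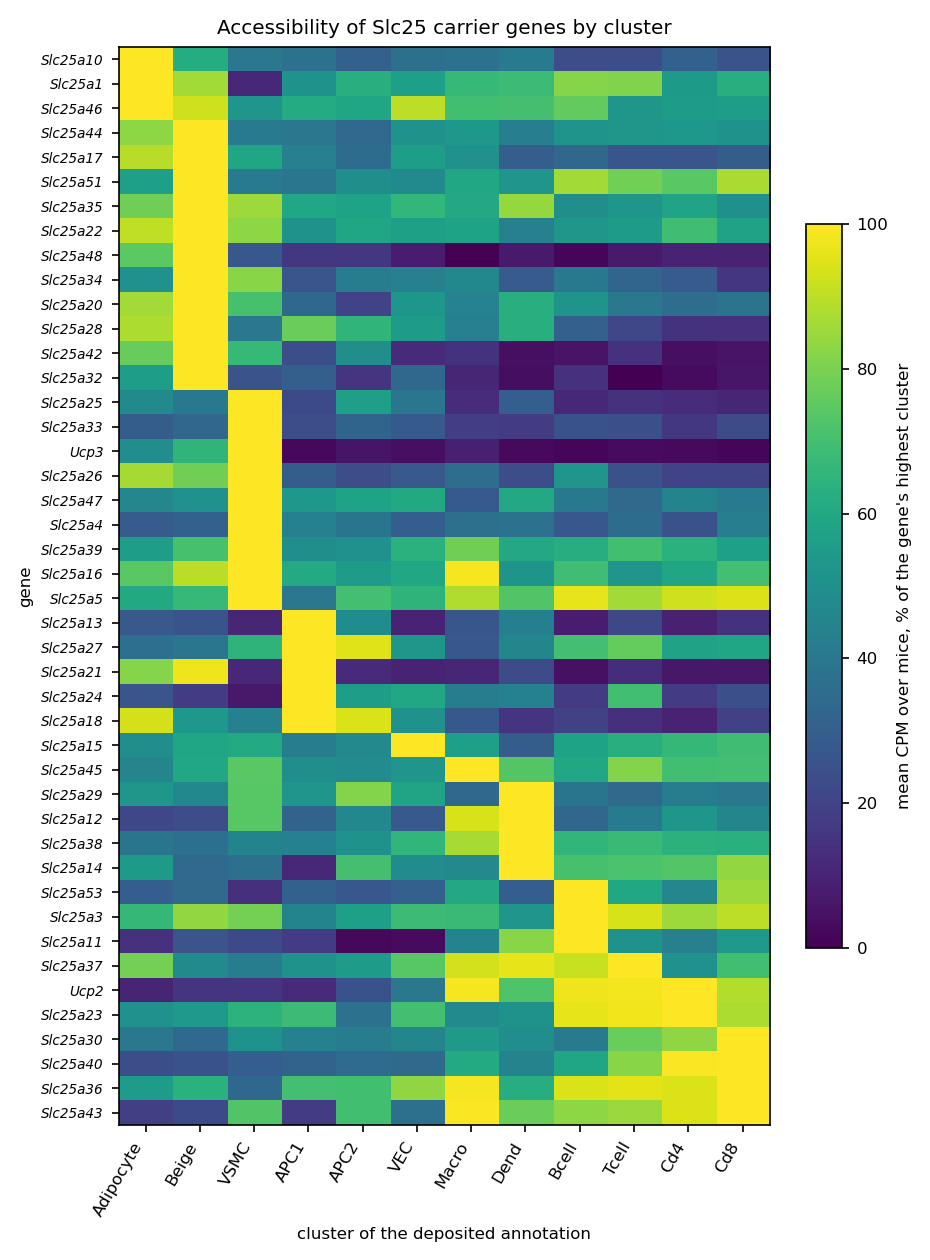
Mean accessibility of 44 members with a peak (vertical axis) in each of the 12 clusters (horizontal axis), as a percentage of the highest cluster of each gene. The highest values (yellow) stand in the beige or white column for 14 of the members drawn, in the column of the cluster annotated VSMC for 9, and in lymphoid and myeloid columns for others such as *Ucp2*.

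The neighbouring uncoupling genes on chromosome 7 differed in opposite directions between adipocytes and immune cells. *Ucp2* (chr7:100493337-100502020), which lowers the membrane potential in many cell types, was at 187 to 211 CPM in the B cell, T cell and macrophage clusters and at 21.6 ± 9.17 in white and 32.7 ± 19.6 in beige adipocytes. *Ucp3* (chr7:100472990-100486432), the uncoupling protein of muscle and brown fat, was at 266 CPM in the cluster annotated VSMC, 174 ± 63.6 in beige and 131 ± 17.7 in white adipocytes, and 3.53 CPM in B cells. In the progenitor cluster APC1 both were low, at 26.4 CPM for *Ucp2* and 5.68 CPM for *Ucp3*, and the 2 genes share no peak.

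In 3 members the highest cluster stood at least 2 times above the next. The share of all genes with such a gap was not computed, so the count is only a description. *Slc25a33*, a pyrimidine nucleotide carrier, was at 286 ± 131 CPM (SD, n = 10) in the cluster annotated VSMC against 94.2 in beige adipocytes. *Slc25a4*, the ADP/ATP carrier of heart and skeletal muscle, was at 141 ± 40.0 CPM there against 62.0 in the progenitor cluster APC1. *Slc25a13*, an aspartate/glutamate carrier, was at 94.3 ± 53.0 CPM (n = 20) in APC1 against 45.7 in APC2. The maxima of *Slc25a33* and *Slc25a4* thus sat in the cluster whose markers were those of skeletal muscle.

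Levels per kilobase of peak compare genes only roughly, since the counts mark a peak as open or not, whatever its width. On this scale *Slc25a3* (52.5 CPM per kb) and *Slc25a10* (51.7) were among the highest in white adipocytes. They were followed by *Slc25a44* (46.0), a carrier of branched-chain amino acids that shares 2 of its 5 peaks with *Pmf1*, and *Ucp3* (42.8). In beige adipocytes *Slc25a3* stood at 66.1, *Ucp3* at 56.7, *Slc25a44* at 55.5 and *Slc25a51*, the NAD+ carrier, at 42.7 CPM per kb. *Slc25a10* was at 32.1 CPM per kb there, below each of these.

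Beige libraries of 19 mice and white libraries of 21 mice were compared to ask which carriers differ between the states. The main fit held the group as a covariate and did not pair the libraries of a mouse. Of 41 members tested, 11 were more accessible in beige adipocytes (26.8%) and 4 less (9.76%). Over all 12751 genes tested, 13.6% were higher and 15.2% lower. The median log2 fold change was 0.11 for the members and 0.01 for all genes. Of the 11 that rose, 5 were cofactor and nucleotide carriers, and the 4 that fell were carriers of dicarboxylates, citrate and amino acids. The beige and white clusters were themselves made from these peaks, so the p-values order the genes but are not independent of the clusters.

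**Figure D2:**
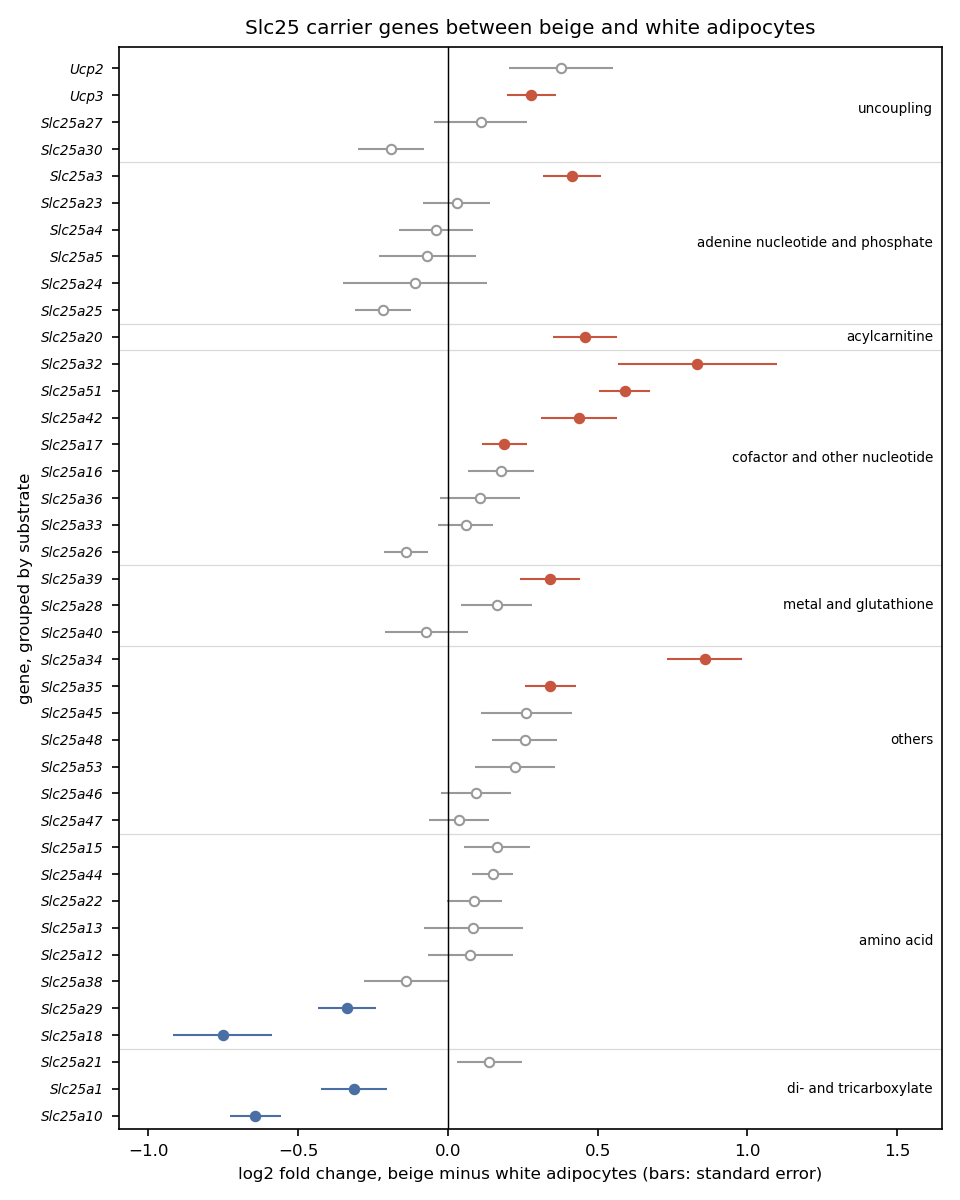
Log2 fold change of accessibility, beige minus white adipocytes (horizontal axis), for 40 members tested (vertical axis), with bars for 1 standard error. Filled orange points are 10 members that rose and filled blue points the 4 that fell at an adjusted p under 0.05, from 0.86 for *Slc25a34* to -0.75 for *Slc25a18*.

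Of the cofactor and nucleotide carriers, 5 of 9 tested rose and none fell, while 13.6% of all genes tested were higher and 15.2% lower. *Slc25a51*, which imports NAD+, ranged from 79.8 to 436 CPM with a median of 128 in 19 beige libraries, and from 58.1 to 112 with a median of 82.6 in 21 white libraries. It was higher in beige adipocytes in 18 of 19 mice (log2 fold change 0.59 ± 0.08 SE, adjusted p = 4.71e-09). The ranges of the beige and white libraries overlapped.

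*Slc25a42*, which imports coenzyme A, was at 52.4 ± 29.4 CPM in beige and 40.3 ± 18.9 in white libraries, a log2 fold change of 0.44 ± 0.13 (15 of 19 mice, adjusted p = 0.00434). *Slc25a32*, a folate and flavin carrier, rose by 0.83 ± 0.27 (adjusted p = 0.0106) from a low level of 8.30 CPM in white to 14.8 CPM in beige adipocytes. *Slc25a17* passed narrowly (0.19 ± 0.08, adjusted p = 0.0484), and did not pass under 19 of 30 alternative settings, over which its adjusted p ranged from 0.00627 to 0.184. Among the cofactor and nucleotide carriers that did not pass were *Slc25a26* and *Slc25a33*.

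The largest gain was at *Slc25a34*, whose substrate is not established. Its level was 14.3 to 124 CPM with a median of 78.8 in beige libraries and 0 to 57.1 with a median of 36.4 in white libraries, so the ranges overlapped while the beige value was the higher in 16 of 19 mice (0.86 ± 0.12, adjusted p = 7.08e-09). Its close relative *Slc25a35*, also without an established substrate, rose by 0.34 ± 0.09 (adjusted p = 0.000755, 16 of 19 mice). *Slc25a34* and *Slc25a35* each share 1 of 4 peaks with a neighbouring gene, *Tmem82* and *Rangrf*.

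Members tied to fatty acid oxidation and ATP synthesis rose in part. *Slc25a20* was at 70.2 ± 25.0 CPM in beige and 60.4 ± 27.6 in white libraries (0.46 ± 0.11, 13 of 19 mice, adjusted p = 0.000358), and *Slc25a3* at 89.2 ± 19.9 and 70.8 ± 32.1 (0.41 ± 0.10, adjusted p = 0.000307, 17 of 19 mice). The beige and white medians were 71.3 and 51.4 CPM for *Slc25a20* and 88.2 and 64.6 for *Slc25a3*. The highest white libraries reached 174 and 203 CPM. The ADP/ATP carriers gave -0.04 for *Slc25a4* (adjusted p = 0.866) and -0.07 for *Slc25a5* (adjusted p = 0.806). Of the 6 adenine nucleotide and phosphate carriers tested, *Slc25a3* was the only one to pass, while 13.6% of all genes tested were higher and 15.2% lower.

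Among the uncoupling proteins, *Ucp3* rose in 14 of 19 mice (log2 fold change 0.28 ± 0.08, adjusted p = 0.00401), while *Ucp2* gave 0.38 ± 0.17 (adjusted p = 0.0927). Without day7CL mouse 1, *Ucp2* gave 0.50 and passed (adjusted p = 0.0303). *Slc25a39*, which brings glutathione into mitochondria, rose by 0.34 ± 0.10 (adjusted p = 0.00517). This gene call was kept under all 30 alternative settings. All counts of *Slc25a39* lie in a single peak, which tested among the peaks gave 0.24 (adjusted p = 0.0490). That peak lost its call under 16 of 25 alternative settings, the block by mouse among them. *Slc25a44* gave 0.15 (adjusted p = 0.0964) at one of the highest levels of all members, 240.4 ± 77.6 CPM in beige and 199 ± 26.4 in white adipocytes.

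The clearest loss was at *Slc25a10*, the dicarboxylate carrier. Its level was 59.95 to 212 CPM with a median of 124 in beige libraries and 146 to 262 with a median of 204 in white libraries. It was lower in beige adipocytes in 18 of 19 mice and fell by 0.64 on the log2 scale (SE 0.09, adjusted p = 3.20e-10). The groups overlapped only in part, and *Slc25a10* kept its call under every one of 30 alternative settings, between -0.73 and -0.50.

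*Slc25a1*, the citrate carrier, was at 59.2 ± 26.4 CPM in beige and 68.6 ± 9.40 in white adipocytes and fell by 0.31 on the log2 scale (adjusted p = 0.0213, lower in 13 of 19 mice). Its call was lost without day1CL mouse 3 (adjusted p = 0.0505) and without day3C mouse 1 (adjusted p = 0.135). Thus 2 of the 3 di- and tricarboxylate carriers tested fell, while 15.2% of all genes tested were lower. The exception was *Slc25a21*, the oxodicarboxylate carrier, at 0.14 (adjusted p = 0.376).

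Of 8 amino acid carriers tested, 2 fell and none rose, while 15.2% of all genes tested were lower and 13.6% higher. Counts by role are small and are given as a description. *Slc25a18*, a glutamate carrier, was at 21.7 ± 17.5 CPM in beige and 38.2 ± 12.4 in white adipocytes and fell by 0.75 on the log2 scale (adjusted p = 0.000104, lower in 16 of 19 mice). *Slc25a29*, a carrier of basic amino acids, fell by 0.34 (adjusted p = 0.00411), but with promoter peaks only its change was -0.00 (adjusted p = 0.992). *Slc25a25*, a calcium-dependent ATP-Mg/phosphate carrier, gave -0.22 (adjusted p = 0.0720), and passed when the mouse was a block (adjusted p = 0.0442).

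**Figure D3:**
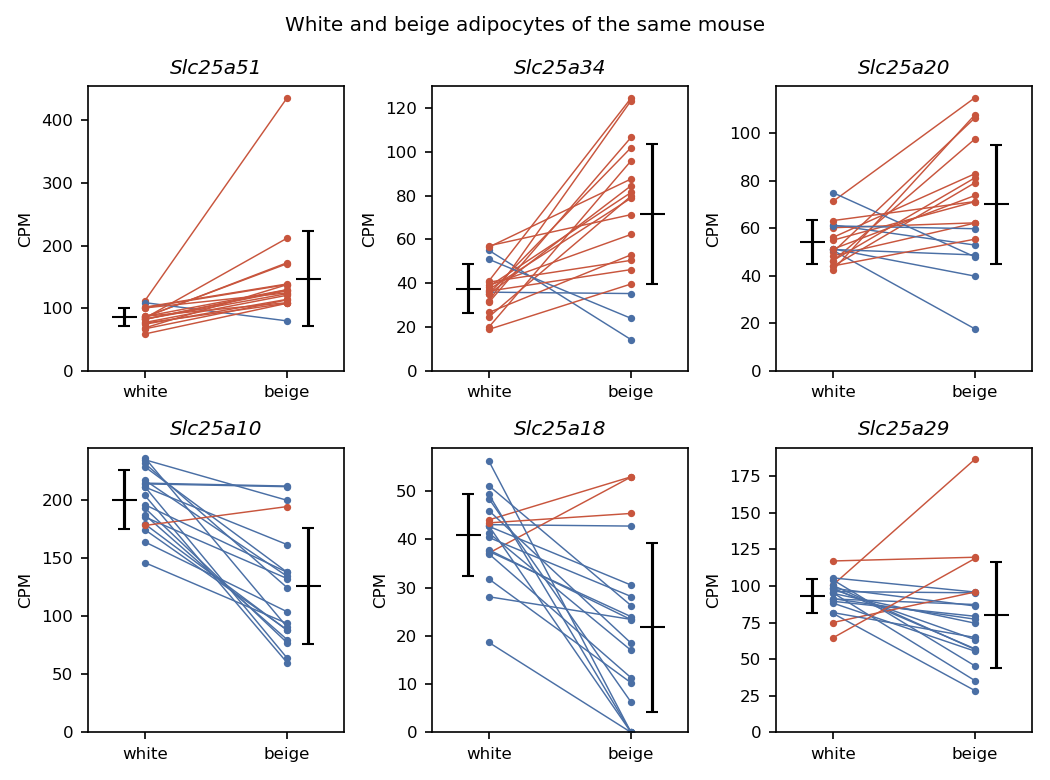
Accessibility in CPM (vertical axis) of *Slc25a51*, *Slc25a34*, *Slc25a20*, *Slc25a10*, *Slc25a18* and *Slc25a29* in white and beige adipocytes (horizontal axis) of the 19 mice with both libraries, 1 line per mouse, orange where beige was higher and blue where it was lower. Black points and bars are the mean and SD. *Slc25a51* has 18 orange lines of 19 and *Slc25a10* has 18 blue lines.

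The other mitochondrial transporters, a list of 26 genes outside the rule, gave 7 higher and 2 lower of 25 tested, with a median log2 fold change of 0.14. *Ucp1* rose (log2 fold change 2.87 ± 0.21, adjusted p = 3.98e-24) from 5.61 CPM in white to 55.0 in beige adipocytes, well beyond any member. *Sfxn5*, *Abcb8*, *Micu3*, *Vdac1* and *Mcu* were among the others that rose, and *Sfxn1*, the mitochondrial serine transporter, and *Mcub*, a dominant-negative subunit of the calcium uniporter, fell. The count of the members and that of this list were close, at 26.8% and 28.0% higher.

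Peak by peak, 67 of the 233 member peaks passed the filter on low counts, of which 13 were higher (19.4%) and 6 lower (8.96%) in beige adipocytes. Over all 24854 peaks tested, 12.8% were higher and 14.4% lower. The balance of gains and losses turned with the setting. With the block by mouse, which pairs the libraries of an animal, 9 of 83 member peaks tested were higher and 10 lower. Without the filter, 5 of 233 were higher and 52 lower, and the changes of the 67 peaks were shifted by a median of -0.30 on the log2 scale. The shares over all peaks in these settings are not given here, so the counts are not read as particular to the members. All 6 lower peaks kept their calls in both settings, against 7 and 1 of the 13 higher ones. Peak levels are given as CPM of peak counts.

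The loss at *Slc25a10* (chr11:120491840-120499187, plus strand) ran along the gene. The peak over coding and untranslated exon sequence near its 3′ end (chr11:120498148-120498688) fell from 31.3 ± 7.51 CPM in white to 12.8 ± 14.7 in beige adipocytes (log2 fold change -1.17, adjusted p = 2.71e-09, lower in 17 of 19 mice). The neighbouring exonic peak (chr11:120497436-120497892) fell by 0.99 on the log2 scale. The peak that holds 4 distinct transcript start positions (6 transcripts annotated) and the promoter printed above (chr11:120491228-120493060) fell by 0.62. An upstream peak (chr11:120489304-120489865) fell by 0.73 (adjusted p = 0.000631), so that 4 of its 5 peaks were lower, the exception (chr11:120490591-120491112) being at -0.29 (adjusted p = 0.186). Of the other lower peaks, the single peak of *Slc25a1* (chr16:17927412-17929169), which spans 5 distinct transcript start positions (6 transcripts annotated), fell by 0.42 (adjusted p = 0.000849). Its counts are those of the gene, which fell by 0.31 in the fit over genes, so the peak adds no separate support.

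The gain with the smallest p was an intronic peak of *Slc25a17* (chr15:81358900-81359313), 1706 bases inside the gene. It rose from 12.4 ± 5.58 CPM in white to 28.9 ± 11.4 in beige adipocytes, in 19 of 19 mice (log2 fold change 0.91, adjusted p = 1.17e-05), whereas the gene as a whole, with 13 peaks, changed by 0.19. *Slc25a20* gained at a peak 1756 bases inside the gene (chr9:108663406-108664283; 0.61, adjusted p = 0.00170), and the peak over its start (chr9:108661730-108663155), which holds the window with CCGGAAGT, gave 0.12 (adjusted p = 0.597).

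At *Slc25a34* the start peak (chr4:141623602-141624235; 0.68, adjusted p = 0.00418) and an exonic peak 1051 bases inside the gene (chr4:141622504-141623037; 0.70, adjusted p = 0.0116) both rose. The single peak of *Slc25a3* (chr10:91123148-91124496), over 5 distinct transcript start positions (8 transcripts annotated), rose by 0.31 (adjusted p = 0.00695). Its counts are those of the gene, which gave 0.41 in the fit over genes, so the peak adds no separate support. With nuclei of at least 2000 counts only, the number of higher peaks was 6 and that of lower peaks 6, and both *Slc25a34* peaks lost their calls. Without the filter, the *Slc25a17* peak kept its call (0.62, adjusted p = 0.00833), whereas the *Slc25a20* peak (0.31, adjusted p = 0.195), the *Slc25a34* peaks (0.38 and 0.41, adjusted p = 0.155 and 0.177) and the *Slc25a3* peak (0.00, adjusted p = 0.987) did not. The *Slc25a3* call was also lost without day3C mouse 1 (0.26, adjusted p = 0.0531).

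**Figure D4:**
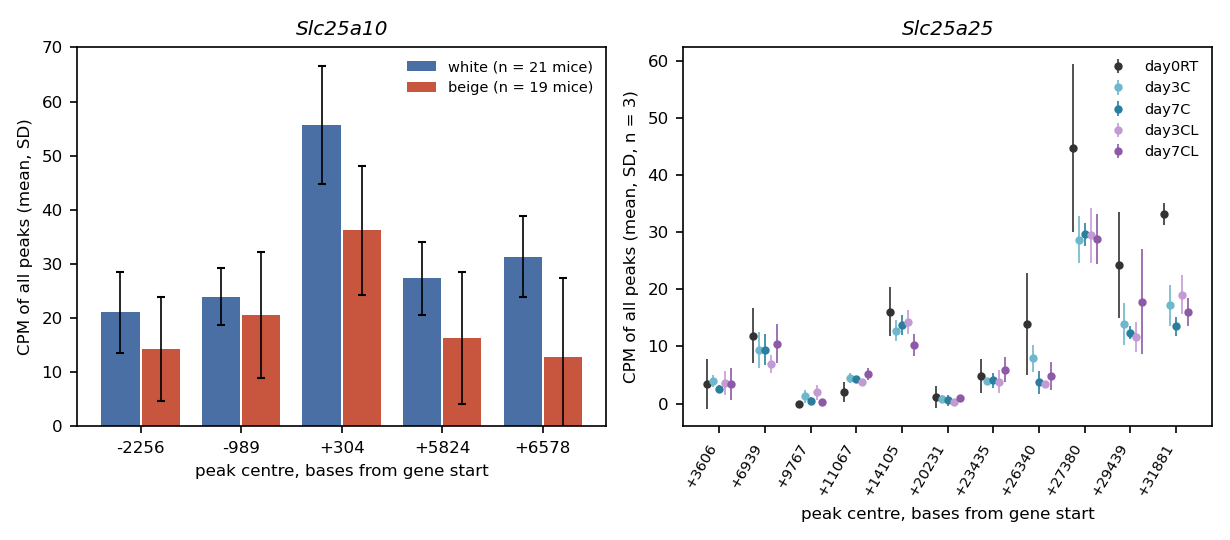
Left, mean CPM (vertical axis) of the 5 *Slc25a10* peaks in white and beige adipocytes, in order of the distance of the peak centre from the gene start in bases (horizontal axis), with bars for the SD over mice. Right, mean and SD of the 11 *Slc25a25* peaks in adipocytes of 3 mice per group. The beige bars are lower than the white ones at all 5 *Slc25a10* peaks, and the day0RT point at +31881 bases of *Slc25a25* stands above those of the treated groups shown.

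In adipocytes of treated mice, with white and beige nuclei of a mouse summed, few members differed from day0RT. The 3 day0RT mice are shared by all of these comparisons, which are therefore not independent of each other. Of 43 members tested, none passed on day1C (0.34% of 14408 genes in either direction), 1 on day3C (1.67%), 3 on day7C (5.02%), 1 on day1CL (2.58%), 2 on day3CL (4.77%) and 4 on day7CL (7.73%). On day1C, 4 members had an unadjusted p under 0.05. The 11 calls fell on 6 genes, and the carriers that fell were *Slc25a25*, *Slc25a10* and *Slc25a22*.

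**Figure D5:**
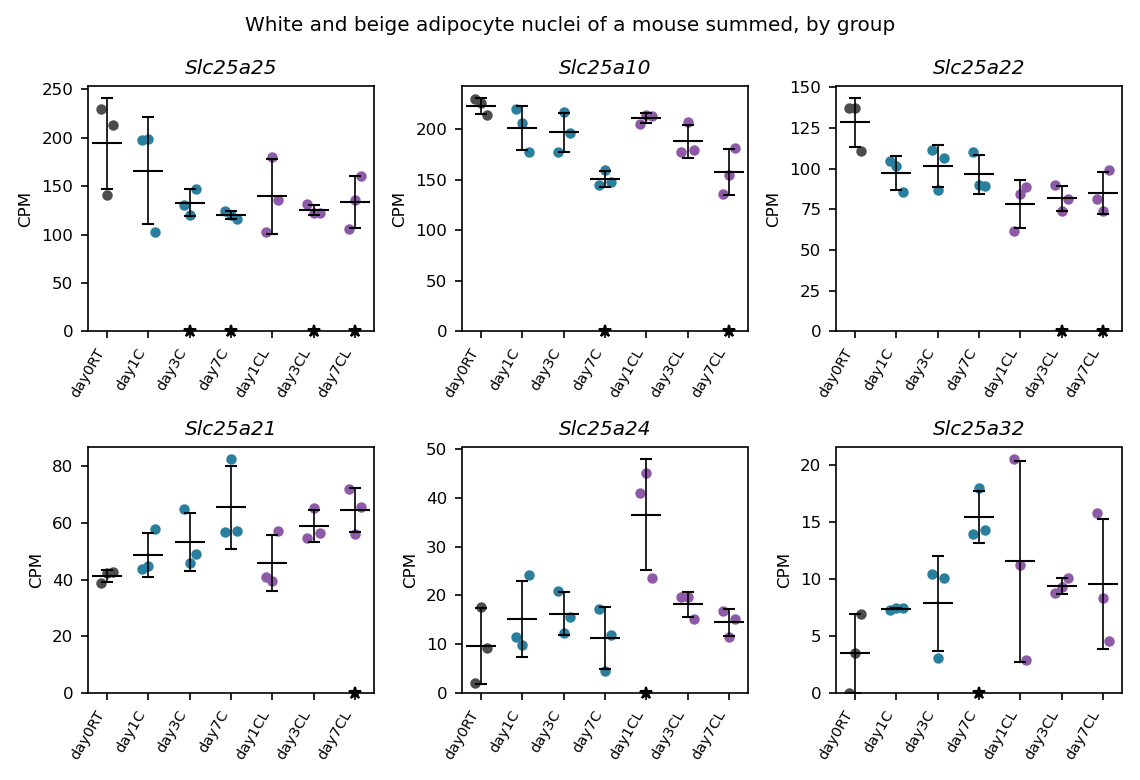
Accessibility in CPM (vertical axis) in the adipocytes of each mouse for the 6 members with a call, by group (horizontal axis), with the mean and SD of 3 mice in black. Stars mark groups with an adjusted p under 0.05 against day0RT, as for *Slc25a25* on day3C, day7C, day3CL and day7CL.

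*Slc25a25* (chr2:32414487-32451445), which loads the matrix with adenine nucleotides when cytosolic calcium rises, was lower in most treated mice. It was at 229, 141 and 213 CPM in the day0RT mice, at 131, 120.4 and 148 on day3C, at 124, 120.0 and 116 on day7C, at 131, 122 and 122 on day3CL, and at 106, 135 and 160.2 on day7CL. All mice of day7C and day3CL lay below every day0RT mouse, and day3C and day7CL overlapped with day0RT mouse 2.

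*Slc25a25* fell by 0.61 on the log2 scale on day3C (adjusted p = 0.0109), by 0.76 on day7C (adjusted p = 0.000356), by 0.70 on day3CL (adjusted p = 0.000608) and by 0.68 on day7CL (adjusted p = 0.000862). On day1C it gave -0.27 (adjusted p = 0.573) and on day1CL -0.53 (adjusted p = 0.0748). With white adipocytes only, the 4 calls of *Slc25a25* remained. The day3C call was lost under DESeq2, without day0RT mouse 1, without day0RT mouse 3 and without day3C mouse 1, with adjusted p from 0.0672 to 0.1248.

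*Slc25a25* had 11 peaks, all farther than 2000 bases from the annotated gene start, and 12 annotated transcripts. Of their distinct start positions, 4 lay in the peak at chr2:32431074-32431355, 1 in the peak at chr2:32423486-32424644 and 1 in the peak at chr2:32421794-32422219. The peak at chr2:32423486-32424644 was at 44.7 ± 14.7 CPM on day0RT and 29.6 ± 2.05 on day7C. The intronic peak at chr2:32419332-32419796 was at 33.1 ± 1.95 and 13.6 ± 1.69 CPM, and the peak at chr2:32421794-32422219 at 24.2 ± 9.26 and 12.4 ± 1.13 CPM (SD, n = 3 each). The level was thus lower on day7C at each of these 3 peaks, which had the highest levels of the gene on day0RT and were not tested by group. Their counts are part of the gene sum above and the day0RT level singled them out, so they add no separate support.

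*Slc25a10* was at 229, 225 and 214 CPM in the day0RT mice, at 145, 159 and 148 on day7C and at 136, 154 and 182 on day7CL, with no overlap. It fell by 0.56 on the log2 scale on day7C (adjusted p = 0.00217) and by 0.54 on day7CL (adjusted p = 0.00226), and on days 1 and 3 it ranged from -0.21 to -0.07 with adjusted p of 0.383 or more. Beige nuclei made up 26.1% to 32.5% of the adipocytes on day7C, 14.5% to 23.5% on day7CL and 7.69% to 12.2% on day0RT, and *Slc25a10* was lower in beige than in white adipocytes. With white adipocytes only, its change was -0.30 on day7C (adjusted p = 0.278) and -0.46 on day7CL (adjusted p = 0.0185). The part of the beige share in these changes was not tested. With promoter peaks only, *Slc25a10* passed on neither day (-0.41, adjusted p = 0.206, and -0.34, adjusted p = 0.272).

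*Slc25a22*, a mitochondrial glutamate carrier, was at 137, 137 and 111 CPM in the day0RT mice, at 89.8, 74.3 and 81.3 on day3CL and at 81.4, 73.9 and 99.2 on day7CL, with no overlap. It fell by 0.64 on the log2 scale on day3CL (adjusted p = 0.00210) and by 0.58 on day7CL (adjusted p = 0.00532). With promoter peaks only, neither passed (-0.26 on both days, adjusted p = 0.766 and 0.734).

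The members that rose were *Slc25a21*, *Slc25a24* and *Slc25a32*. *Slc25a21* rose from 38.9, 42.2 and 42.8 CPM on day0RT to 71.9, 56.2 and 65.6 on day7CL (log2 fold change 0.70 ± 0.19, adjusted p = 0.0121). *Slc25a24*, another ATP-Mg/phosphate carrier, rose on day1CL (1.63 ± 0.45, adjusted p = 0.0281) on 2, 8 and 33 counts against 1, 5 and 8 on day0RT. *Slc25a32* rose on day7C (1.79 ± 0.56, adjusted p = 0.0408) on 13, 12 and 18 counts against 0, 1 and 6. It was higher in beige than in white adipocytes, the beige share was higher on day7C, and *Slc25a32* has no result with white adipocytes only. The part of the beige share in its rise was not tested. The calls of *Slc25a24* and *Slc25a32* rest on few counts and were each lost under 6 alternative settings. That of *Slc25a21* was lost under 5 of 32. These were DESeq2, promoter peaks only (adjusted p = 0.336), and leaving out day0RT mouse 1, day0RT mouse 3 or day7CL mouse 1.

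The day7CL calls were lost without 1 mouse, while the directions stayed. Without day7CL mouse 1, whose adipocyte nuclei had a median of 6685.5 counts against 1932 and 3243 in the other two, the log2 fold changes were -0.46 for *Slc25a25* (adjusted p = 0.123), -0.40 for *Slc25a10* (adjusted p = 0.1252), -0.54 for *Slc25a22* (adjusted p = 0.0807) and 0.54 for *Slc25a21* (adjusted p = 0.258). Median counts per adipocyte nucleus were 1330.5 to 2697 on day0RT and 2058 to 3513.5 on day7C, and the summed B cell markers in adipocytes were 119.6 to 172 CPM on day0RT, 95.3 to 107 on day7C and 141 to 149.6 on day7CL. The part of depth and of lymphocyte signal in these results was not tested. The summed adipocyte markers were 1918 to 2298 CPM on day0RT, 1731 to 1952 on day7C and 1754 to 2102 on day7CL.

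The other carriers of uncoupling, ATP exchange and fuel import did not pass in any group. *Ucp2* ranged from -0.66 on day7C (adjusted p = 0.214) to -0.12 on day1C, and *Ucp3* from -0.37 on day1CL (adjusted p = 0.249) to -0.07 on day1C. *Slc25a4* ranged from -0.02 on day1CL to 0.68 on day1C (adjusted p = 0.207), and *Slc25a5* from -0.65 on day7CL (adjusted p = 0.0810) to -0.19 on day3C. *Slc25a3* lay between 0.03 and 0.42, *Slc25a20* between -0.00 and 0.33, *Slc25a42* between -0.03 and 0.40 and *Slc25a1* between -0.12 and 0.18, with adjusted p of 0.351 or more.

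*Slc25a44* lay between -0.40 on day3C (adjusted p = 0.0692) and -0.12 on day3CL. Counted without the 2 of its 5 peaks that it shares with *Pmf1*, *Slc25a44* gave -0.53 on day3C (adjusted p = 0.0163), -0.44 on day7C (0.0372), -0.56 on day1CL (0.0341) and -0.52 on day7CL (0.00615), so that its calls depended on which peaks were counted.

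Of the other mitochondrial transporters, *Tspo*, an outer membrane protein that binds cholesterol, fell on day3C, day7C, day3CL and day7CL, by 0.37 to 0.61 on the log2 scale. *Ucp1* (1.70 ± 0.41, adjusted p = 0.00485) and *Sfxn5* (0.40 ± 0.11, adjusted p = 0.0156) rose on day7C, and *Slc8b1*, the mitochondrial sodium/calcium exchanger, fell on day7CL. *Ucp1* and *Sfxn5* were higher in beige than in white adipocytes, and the beige share was higher on day7C than on day0RT. The part of the beige share in their rise was not tested.

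CL and cold were compared directly at each day. None of 43 members passed on day 1 (0.916% of genes), day 3 (1.46%) or day 7 (0.111%) with edgeR or with DESeq2, which left 28 and 22 members without an adjusted p on days 1 and 3, and with edgeR 9, 6 and 1 members had an unadjusted p under 0.05. The nearest was *Slc25a22* on day 3, at 81.8 ± 7.77 CPM with CL and 102 ± 12.9 with cold (CL minus cold -0.40 ± 0.12 on the log2 scale, adjusted p = 0.0553). It passed under 4 of the other settings and without any 1 of 9 mice, with adjusted p from 0.0308 to 0.0498. Among the carriers reported throughout, *Slc25a4* on day 1 gave -0.70 (adjusted p = 0.128), and the others lay between -0.31 for *Slc25a5* on day 7 and 0.28 for *Slc25a44* on day 3.

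Outside adipocytes, no member passed between the treated mice and day0RT in the 4 largest immune clusters. Few genes of any kind passed there, so the absence of calls is not particular to the members. In B cells 0 of 37 members passed (0.731% of genes), in Cd8 T cells 0 of 32 (0.0579%), in Cd4 T cells 0 of 30 (0.0417%) and in the cluster annotated Tcell 0 of 12 (0.0172%) with edgeR, and DESeq2 gave 0 in each, with 36 of the B cell members left without an adjusted p. The unadjusted p was under 0.05 for 3, 1, 0 and 0 members. *Ucp2*, one of the members most accessible in lymphocytes, was at 201 ± 17.2 CPM (SD, n = 3) in B cells on day0RT and 207 ± 14.4 (n = 18) in treated mice. *Slc25a25* was at 38.5 ± 3.41 and 33.7 ± 11.1 CPM in B cells, with a log2 fold change of -0.31 ± 0.19 (adjusted p = 0.514). *Slc25a10* gave -0.04 (adjusted p = 0.944), *Slc25a44* -0.10 (adjusted p = 0.728) and *Slc25a3* 0.10 (adjusted p = 0.738) in the same cells, and *Slc25a1* (0.23), *Slc25a4* (-0.07), *Slc25a5* (-0.27) and *Slc25a20* (-0.24) had adjusted p of 0.469 or more. *Ucp3* and *Slc25a42* were not tested in lymphocytes, where their counts were too low. In the 3 T cell clusters those of the carriers that were tested lay between -0.24 for *Slc25a25* in Cd8 and 0.27 for *Slc25a1* in Cd4 T cells, with adjusted p of 0.797 or more.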

How the data were processed

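iWAT nuclei of 21 mice were analysed. The 4 GEO samples are sequencing lanes that name no group, so the mouse, group and cluster of each nucleus were taken from the deposited annotation. The authors aligned reads to mm10 with Bowtie2, sorted them with SAMtools, removed low-quality reads, PCR duplicates (Picard) and mitochondrial reads, called peaks per cluster with MACS2, removed low-quality nuclei and doublets, and clustered nuclei in Signac. The deposited counts are binary (65588856 entries of 1 and 145 stored zeros), so 1 read and several reads in a peak of a nucleus cannot be told apart, which flattens differences at widely open peaks. Peak intervals are those of the deposited files on mm10.

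From these, counts were summed per mouse and cluster over libraries of at least 10 nuclei, and per gene over the peaks overlapping its body or 2000 bases upstream (GENCODE vM21). Of all peaks, 3.38% were counted for more than 1 gene. Tests were edgeR 4.0.16 quasi-likelihood in R 4.3.3 (TMM, filterByExpr set to min.count 10, min.total.count 15 and min.prop 0.7, prior count 0.125), two-sided, fitted over all genes or peaks with Benjamini-Hochberg adjustment within each comparison and a threshold of 0.05. Beige and white libraries were compared with the group as a covariate, and treated groups with all 21 mice in the fit. Standard errors are the absolute log2 fold change over the square root of F. Alternatives were DESeq2 1.42.0, median-ratio size factors, no filter, promoter peaks, peaks of a single gene, nuclei of at least 2000 counts, libraries of at least 5 or 30 nuclei, white adipocytes only, only the groups compared, a block by mouse or replicate number, and each mouse left out. Beige and white libraries of 1 mouse come from the same animal, so the block by mouse pairs them by design. Gene counts ranged from 16070 to 555189 in beige and from 34412 to 2856866 in white libraries, which sets the precision, and intervals on counts would cover counting error only.

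Members past the threshold are named, with 11 carriers reported in every comparison of genes, and the 5 peaks with the smallest p in each direction. The members and lists were chosen with earlier results of these data known. The steps were tested on simulated data. Members on chromosome 18 have no sequence shown. The values of 1 member and 1 other transporter count in the totals but are otherwise not reported here.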

Additional observations from a re-analysis of the deposited data

Results flagged for a closer look

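In the cluster annotated VSMC, 2 of 9 members that were highest there had 1 mouse far from the other 9. *Slc25a16* reached 238 CPM and *Slc25a47* 317 CPM in the library of day7CL mouse 3. The gap to the nearest mouse was 0.641 and 0.478 of the whole range. That library held 13 nuclei and 12611 gene counts, and the values stand for 3 and 4 counts. For normally distributed values, chance flags about 1 in 20 groups. That rate need not hold here, since these members were chosen for a high mean in this cluster and the values are few counts.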

How the results depend on the processing

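Between beige and white adipocytes, the 15 calls became 12 to 16 under the other settings and 13 to 16 when any 1 mouse was left out. The block by mouse gave 16 calls, all 15 and *Slc25a25*, and changed no other call of a member. For the 11 calls against day0RT, DESeq2 gave 6 (it left 16 to 32 members without an adjusted p in each comparison) and promoter peaks only gave 3, at *Slc25a35* on day7C and day7CL and *Slc25a48* on day7CL, all higher. *Slc25a25* and *Slc25a32* have no promoter peak, so their calls could not be tested with promoter peaks only. Leaving out 1 mouse gave 6 to 13, with 6 without day0RT mouse 1 and 7 without day7CL mouse 1. Between CL and cold, the count of 0 became 1 with median-ratio size factors, no filter, at least 30 nuclei, only the 2 groups compared (each *Slc25a22* on day 3) and white adipocytes only (*Slc25a17* on day 1, 0.62, adjusted p = 0.0340), and 0 to 1 when any 1 mouse was left out. The immune counts stayed at 0. Of 19 member peaks called, nuclei of at least 2000 counts gave 12, no filter 57 of 233 tested (5 higher, 52 lower) and leaving out 1 mouse 13 to 21. The single *Slc25a39* peak (chr11:102406833-102408929), which holds all counts of that gene, turned to -0.091 without the filter (adjusted p = 0.565). With the block by mouse, 19 of 83 peaks tested were called, 9 higher and 10 lower, of which 13 were the same peaks. The cause of these changes was not tested.

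Replicate numbers gave no clear sign of pairing the mice of different groups. The paper states that its 3 batches were run independently, and each group held 3 mice. The correlations given here cannot tell whether a number stands for a batch. The deviations of 63 same-numbered pairs of adipocyte libraries had a median correlation of 0.01 over 739 genes (-0.32 to 0.39), and 7 of 21 mice correlated best with a mouse of their own number, so the numbers were not read as a pairing. The block by replicate number left the 11 calls against day0RT and the 0 between CL and cold at the same counts. Depth limits the low members most, since 1 count was worth 29.1 CPM in the smallest white library and 62.2 CPM in the smallest beige one.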
